A study of Mus musculus with 6 samples.

Results

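The nuclear genes for the proteins of the mitochondrial ribosome were compared between left ventricles of mice with cardiomyocyte-specific RBM20 overexpression and control left ventricles. The family was taken by name, as every gene symbol that starts with Mrpl (large subunit) or Mrps (small subunit) followed by a number. It holds 78 of the 31273 gene symbols measured, 49 for the large subunit and 29 for the small one. RBM20 is a splicing factor of striated muscle, and the stated question of the study was its part, unmutated, in dilated cardiomyopathy. The study describes the animals as a tamoxifen-inducible knock-in line, so that the added RBM20 is limited to cardiomyocytes while the RNA is that of the whole ventricle. There were 3 RBM20-overexpressing and 3 control libraries of poly(A) RNA. The labels give no age, and they do not say whether control animals carried a Cre transgene or received tamoxifen. Library titles carry the tag cre in the RBM20-overexpressing group and cki in the control group, and the groups here follow the genotype label. The labels do not say whether each library is a separate animal, so a p-value reflects the library-to-library spread, which may be partly technical.

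The mitochondrial ribosome, or mitoribosome, sits in the mitochondrial matrix and translates the 13 mRNAs encoded by mitochondrial DNA, all of which specify subunits of the respiratory chain and ATP synthase. Its ribosomal RNAs come from the mitochondrial genome, whereas its proteins are made in the cytosol from nuclear genes and imported. Many of its proteins descend from bacterial ribosomal proteins, others were added in the evolution of mitochondria, and heart muscle, which depends on oxidative phosphorylation, is sensitive to defects in several of them in humans.

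Rbm20 stood at 321, 913 and 907 TPM (transcript abundance corrected for gene length and scaled to a fixed library total) in the RBM20-overexpressing libraries, against 74.9, 90.9 and 79.5 TPM in the control libraries. RBM20-overexpressing replicate 1 had the lowest Rbm20 level of its group and was the only library with the Y-linked Ddx3y above 0, at 88.1 TPM, so it is not from the same animal as the other libraries of its group. Xist, a transcript of female cells, was at 0.0172 TPM in that library and at 34.4 to 62.6 TPM in the others. Sex was therefore not balanced between the groups. Esr1, whose hormone-binding part is fused to Cre in tamoxifen-inducible lines, was at 53.0 to 218 TPM in the RBM20-overexpressing libraries and at 0.234 to 0.415 TPM in the control libraries. If Cre was present in the RBM20-overexpressing group only, its presence and the added RBM20 cannot be told apart in any difference given here. Genes encoded by mitochondrial DNA took 36.7% to 41.0% of all TPM in RBM20-overexpressing ventricles and 48.3% to 52.0% in control ventricles. TPM values of a library add up to a fixed total. The median log2 difference over the 12404 genes tested (those with a mean of at least 1 TPM) was 0.55 and not 0. In values scaled again without mitochondrially encoded genes the all-gene median was 0.32. What sets this offset was not tested. Because of the offset, differences are given in TPM and many of them again after median-of-ratios scaling, which sets the all-gene median to 0.01. TPM values keep no read depth, and no counting interval is given.

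All 78 members had a mean of at least 1 TPM and were tested. In TPM, 18 members were higher in RBM20-overexpressing than in control ventricles and 16 were lower, at an adjusted p under 0.05 from limma on log2(TPM + 1), while 44 were not called. Over all genes tested, 59% were called higher and 9.09% lower by the same rule. The median log2 difference of the family was 0.01, against the 0.55 of all genes tested, and 73 of the 78 members lay under that 0.55. After median-of-ratios scaling 0 members were called higher and 61 lower, where 22.2% of all genes tested were higher and 24% lower. The count without a call was then 17, and 0 members had all RBM20-overexpressing libraries above all control libraries. On that scale the median of the family was -0.61, the members ran from -1.70 (Mrpl34) to 0.12 (Mrpl52), and 76 of 78 lay below 0. In the values scaled again without mitochondrially encoded genes, 5 members were higher and 39 lower, with 40.1% and 13.4% of 13420 genes tested. With quantile normalization 0 members were higher and 57 lower, with 23.9% and 22.7% of all genes tested. The 5 members higher without mitochondrially encoded genes were Mrpl52, Mrpl33, Mrps18a, Mrps18c and Mrpl54. The number called higher in TPM fell to 10 without RBM20-overexpressing replicate 2, to 10 without control replicate 2 and to 8 without control replicate 3. RNA was taken from whole ventricle, so fewer cells of a type and less RNA per cell cannot be told apart.

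**Figure D1:**
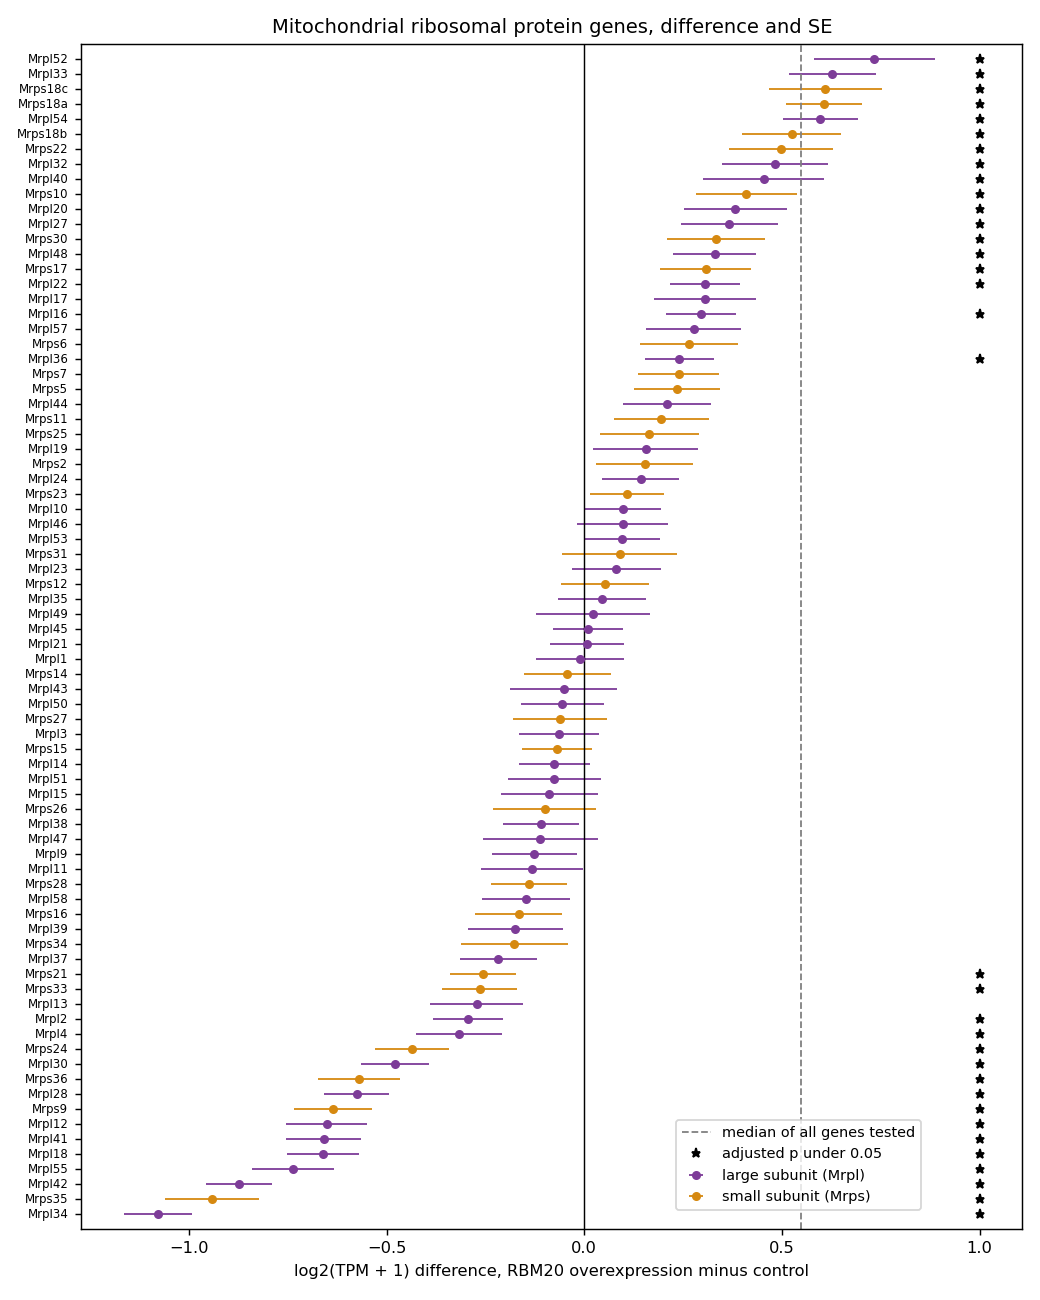
Log2 difference of each of the 78 mitochondrial ribosomal protein genes, RBM20-overexpressing minus control, on the log2(TPM + 1) scale, with standard errors, large-subunit and small-subunit genes in different colours. Stars at the right mark an adjusted p under 0.05 and a dashed line the median of all genes tested. The members run from -1.08 (Mrpl34) to 0.73 (Mrpl52), and 73 of them lie below the all-gene median of 0.55.

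Promoter sequence is shown here for 5 members that each hold a motif searched for, chosen to set opposite directions in TPM beside each other. Members whose window holds none of the motifs, among them Mrpl34, Mrpl42 and Mrpl55, all called lower, are not shown. After median-of-ratios scaling the 2 shown as higher, Mrpl52 (0.12) and Mrps18c (-0.01), were not called. RefSeq (GRCm38.p6) gave a window of 250 bases before to 50 after the start for 69 of the 78 members. Each window was searched on both strands for a motif of each of 4 factors known from work on nuclear genes for mitochondrial proteins. Capitals mark the motif, and the sequences run 5′ to 3′ on the strand of the gene. Mrpl12 (chr11:120484387-120484686, plus strand) and Mrps9 (chr1:42850983-42851282, plus strand), both lower, hold the motif of NRF1, nuclear respiratory factor 1 (GCGCA, any base, then GCGC), on the other strand. Mrpl18 (chr17:12916042-12916341, minus strand), which was lower, holds CCGGAAGT, the motif of the ETS factor GABPA. Mrpl52 (chr14:54426659-54426958, plus strand) and Mrps18c (chr5:100798509-100798808, plus strand), both higher in TPM, hold the GABPA motif on the other strand.
Mrpl12: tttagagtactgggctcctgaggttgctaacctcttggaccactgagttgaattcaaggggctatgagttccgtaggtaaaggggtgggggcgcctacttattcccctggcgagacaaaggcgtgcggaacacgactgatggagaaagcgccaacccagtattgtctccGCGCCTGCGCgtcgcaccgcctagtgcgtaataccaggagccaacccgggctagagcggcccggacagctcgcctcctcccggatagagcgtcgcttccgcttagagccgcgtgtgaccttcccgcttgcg
Mrps9: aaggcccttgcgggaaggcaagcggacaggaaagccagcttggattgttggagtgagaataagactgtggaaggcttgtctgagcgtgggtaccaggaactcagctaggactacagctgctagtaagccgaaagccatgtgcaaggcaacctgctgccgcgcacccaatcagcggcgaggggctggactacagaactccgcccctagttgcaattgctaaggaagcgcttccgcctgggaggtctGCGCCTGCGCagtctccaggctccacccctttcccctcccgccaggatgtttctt
Mrpl18: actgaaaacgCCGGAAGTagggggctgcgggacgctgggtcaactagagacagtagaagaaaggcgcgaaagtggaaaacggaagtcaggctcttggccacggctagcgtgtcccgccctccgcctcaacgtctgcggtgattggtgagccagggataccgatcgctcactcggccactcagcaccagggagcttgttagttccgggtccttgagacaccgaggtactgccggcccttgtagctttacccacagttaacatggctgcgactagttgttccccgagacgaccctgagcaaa
Mrpl52: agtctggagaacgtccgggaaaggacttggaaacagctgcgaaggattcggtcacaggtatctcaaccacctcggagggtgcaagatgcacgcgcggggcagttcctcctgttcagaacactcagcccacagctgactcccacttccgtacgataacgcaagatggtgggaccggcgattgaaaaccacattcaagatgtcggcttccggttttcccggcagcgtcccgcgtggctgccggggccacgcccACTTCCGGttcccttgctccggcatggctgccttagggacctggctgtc
Mrps18c: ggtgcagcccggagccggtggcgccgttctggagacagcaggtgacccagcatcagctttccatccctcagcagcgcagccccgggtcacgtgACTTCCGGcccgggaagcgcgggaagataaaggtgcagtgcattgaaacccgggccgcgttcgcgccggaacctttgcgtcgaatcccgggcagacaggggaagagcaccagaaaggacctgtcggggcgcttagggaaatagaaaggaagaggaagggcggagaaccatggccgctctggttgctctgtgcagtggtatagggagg
The motif begins 81 bases before the start in Mrpl12 and 5 before it in Mrps9, 240 before it in Mrpl18, 157 before it in Mrps18c, and 1 base after it in Mrpl52.

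The NRF1 motif stood in 13 of the 69 members with a window (18.8%), against 5.19% of 27025 genes with a RefSeq window and 11.4% of the 9663 tested genes with one. A gene with several windows was counted once. Among members with a window, 1 of 17 called higher in TPM held it, against 4 of 14 called lower and 8 of 38 not called. The members called lower with it were Mrpl12, Mrps9, Mrpl30 and Mrps21, and the member called higher was Mrpl32. The GABPA motif stood in 12 members (17.4%), against 4.31% of all genes with a window and 8.96% of tested genes with one. It was in 6 of 17 members called higher (Mrpl27, Mrpl33, Mrpl48, Mrpl52, Mrps18c and Mrps22), in 1 of 14 of those called lower (Mrpl18) and in 5 of 38 of those not called. ATGGCGGC, the motif of YY1, stood in 12 members (17.4%), against 2.60% of all genes with a window and 5.70% of tested genes with one. By call it was in 4 of 17 members called higher, 0 of 14 of those called lower and 8 of 38 of those not called. TCAAGGTCA, the motif of estrogen-related receptors, stood in 0 members and in 0.331% of tested genes with a window. Few members held more than 1 of the motifs. Mrps26 had those of NRF1 and GABPA, Mrpl9 those of NRF1 and YY1, and Mrpl27 and Mrps27 those of GABPA and YY1. These shares describe letters in a window and were not tested. The shares by call were not computed over all genes tested, so a split by call may not be particular to the members. The calls are those in TPM, and after median-of-ratios scaling 0 members were called higher.

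The 16 members lower in TPM ran from -1.08 to -0.26 in log2 difference, and they lay between the 2.77th and the 11.6th percentile of all genes tested. Mrpl34, a small basic protein of the large subunit with a bacterial counterpart, was lowest relative to control, with 44.8, 49.5 and 49.0 TPM in RBM20-overexpressing ventricles, against 101, 103 and 102 TPM in control ventricles. The groups did not overlap, and RBM20-overexpressing ventricles held 46.9% of the control mean (log2 difference -1.08, SE 0.0862, adjusted p = 3.27e-05 from limma). Mrps35, a small-subunit protein without a bacterial counterpart, had 12.5, 13.4 and 15.0 TPM in RBM20-overexpressing ventricles, against 28.5, 28.1 and 24.7 TPM in control ventricles. Every RBM20-overexpressing library lay below every control library, and the mean was 50.3% of control (log2 difference -0.94, SE 0.119, adjusted p = 0.000234 from limma). Mrpl42, a mitochondria-specific protein of the large subunit, had 70.8, 66.7 and 72.3 TPM in RBM20-overexpressing ventricles, against 133, 128 and 126 TPM in control ventricles. Again the groups were apart (log2 difference -0.87, SE 0.083, adjusted p = 6.75e-05 from limma). Mrpl55, the counterpart of a bacterial large-subunit protein, had 53.6, 48.5 and 59.7 TPM in RBM20-overexpressing ventricles, against 93.0, 93.5 and 84.4 TPM in control ventricles. The 3 low values were all in RBM20-overexpressing ventricles (log2 difference -0.74, SE 0.105, adjusted p = 0.000412 from limma). After median-of-ratios scaling the log2 differences of these 4 were -1.70 for Mrpl34, -1.53 for Mrps35, -1.49 for Mrpl42 and -1.35 for Mrpl55. That scaling moves nearly every difference downward, so for members that fell it is no separate check.

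Mrpl18, the counterpart of the bacterial protein that binds 5S ribosomal RNA, belongs to the central protuberance of the large subunit. It had 55.6, 63.0 and 58.3 TPM in RBM20-overexpressing ventricles, against 90.3, 98.8 and 92.0 TPM in control ventricles. Its groups were separate (log2 difference -0.66, SE 0.0914, adjusted p = 0.00036 from limma). Mrpl12, a protein of the flexible stalk that contacts translation factors, also binds the mitochondrial RNA polymerase in mammals. It had 103, 85.3 and 87.7 TPM in RBM20-overexpressing ventricles, against 153, 146 and 135 TPM in control ventricles. No RBM20-overexpressing library reached a control library (log2 difference -0.65, SE 0.102, adjusted p = 0.000685 from limma). Mrps9, a conserved protein of the small-subunit head, had 32.2, 29.4 and 31.7 TPM in RBM20-overexpressing ventricles, against 49.7, 51.6 and 45.4 TPM in control ventricles. All 3 RBM20-overexpressing values were below the control values (log2 difference -0.64, SE 0.0987, adjusted p = 0.000638 from limma). Mrpl41, a mitochondria-specific protein of the large subunit, had 49.0, 50.1 and 49.1 TPM in RBM20-overexpressing ventricles, against 86.6, 75.4 and 74.3 TPM in control ventricles. Its RBM20-overexpressing libraries were nearly equal, and all were below the control libraries (log2 difference -0.66, SE 0.0948, adjusted p = 0.000435 from limma). Mrpl28, with a bacterial counterpart, had 61.4, 61.5 and 63.5 TPM in RBM20-overexpressing ventricles, against 96.7, 92.7 and 90.0 TPM in control ventricles. Here too the groups did not overlap (log2 difference -0.58, SE 0.0829, adjusted p = 0.000436 from limma).

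Mrps36 carries the family name but is now known as a subunit of the 2-oxoglutarate dehydrogenase complex of the citric acid cycle. It had 95.2, 111 and 116 TPM in RBM20-overexpressing ventricles, against 172, 155 and 152 TPM in control ventricles. It was lower in every RBM20-overexpressing library than in any control library (log2 difference -0.57, SE 0.103, adjusted p = 0.00138 from limma). Mrps21, a counterpart of a bacterial small-subunit protein, was the most abundant member in both groups. It had 243, 248 and 232 TPM in RBM20-overexpressing ventricles, against 307, 288 and 269.9 TPM in control ventricles. The groups did not overlap (log2 difference -0.26, SE 0.0832, adjusted p = 0.0235 from limma). The other members called lower were Mrpl30 (log2 difference -0.48), Mrps24 (-0.44), Mrpl4 (-0.32), Mrpl2 (-0.29) and Mrps33 (-0.26). Of the 16, 12 kept their call without any 1 of the 6 libraries and under every other alternative tried, the exceptions being Mrps21, Mrpl4, Mrpl2 and Mrps33.

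**Figure D2:**
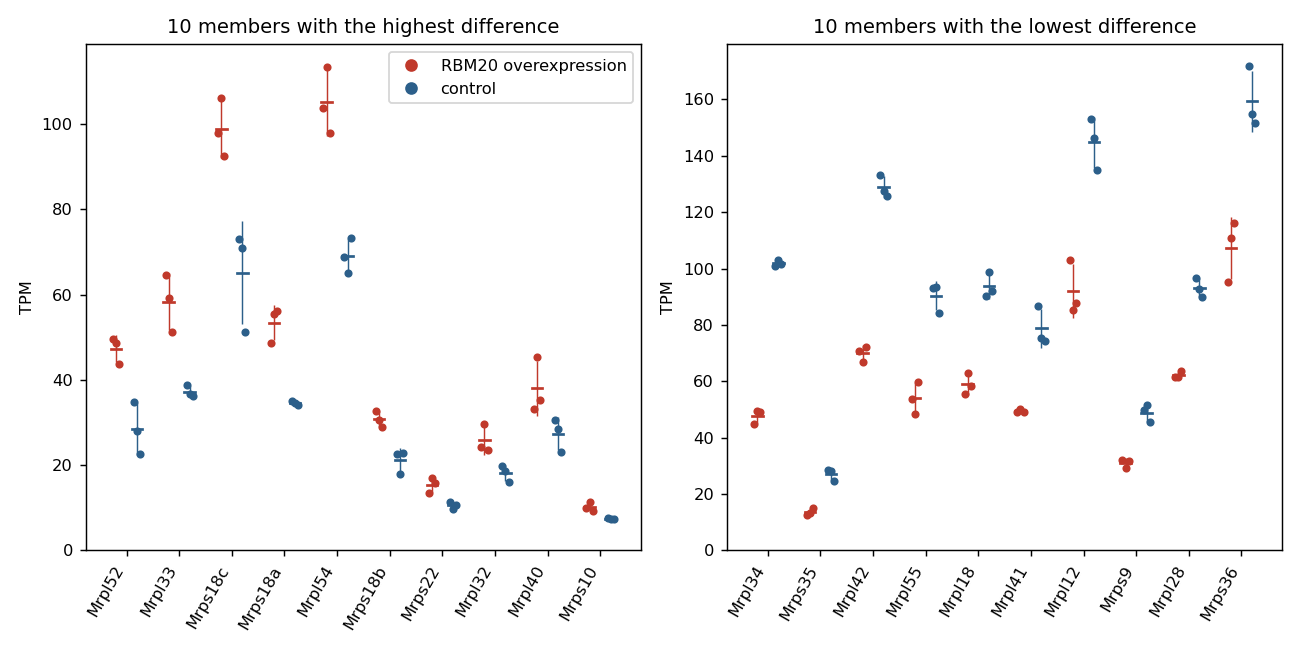
TPM per library of the 10 members with the highest and the 10 with the lowest log2 difference, with RBM20-overexpressing libraries left of control libraries for each gene. Points are libraries and bars are the mean and SD (n = 3 each). For each of these 20 genes the groups do not overlap, but the genes were picked by their difference in these same libraries. In TPM the groups did not overlap for 62.1% of all genes tested with RBM20-overexpressing libraries above and for 10.4% with them below.

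The 18 members higher in TPM ran from 0.24 to 0.73 in log2 difference, and lay between the 29.8th and the 63.7th percentile of all genes tested. Mrpl52, a mitochondria-specific protein of the large subunit, was highest relative to control, with 49.5, 48.7 and 43.7 TPM in RBM20-overexpressing ventricles, against 34.8, 27.9 and 22.6 TPM in control ventricles. The groups were apart although the control values were spread (log2 difference 0.73, SE 0.153, adjusted p = 0.0029 from limma). After median-of-ratios scaling its difference was 0.12, with an adjusted p of 0.526 from limma. Mrpl33, with a bacterial counterpart in the large subunit, had 64.6, 59.2 and 51.2 TPM in RBM20-overexpressing ventricles, against 38.8, 36.7 and 36.2 TPM in control ventricles. Its 3 RBM20-overexpressing values were the highest (log2 difference 0.63, SE 0.109, adjusted p = 0.00115 from limma), and its scaled difference was 0.01. Mrpl54, a mitochondria-specific protein of the large subunit, had 104, 113 and 97.8 TPM in RBM20-overexpressing ventricles, against 68.9, 65.1 and 73.2 TPM in control ventricles. The lowest RBM20-overexpressing value was well above the highest control value (log2 difference 0.60, SE 0.0951, adjusted p = 0.000736 from limma), and the scaled difference was -0.02.

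The 3 mammalian paralogs of the bacterial small-subunit protein S18 were all higher in TPM. Mrps18c had 97.8, 106 and 92.5 TPM in RBM20-overexpressing ventricles, against 73.1, 71.0 and 51.2 TPM in control ventricles, with control replicate 3 lowest in its group (log2 difference 0.61, SE 0.142, adjusted p = 0.005 from limma). Mrps18a, which in mammals sits in the large subunit despite its name, had 48.6, 55.4 and 56.0 TPM in RBM20-overexpressing ventricles, against 35.1, 34.7 and 34.1 TPM in control ventricles, with nearly equal controls (log2 difference 0.61, SE 0.0971, adjusted p = 0.000751 from limma). Mrps18b had 32.7, 30.5 and 29.0 TPM in RBM20-overexpressing ventricles, against 22.7, 17.9 and 22.9 TPM in control ventricles (log2 difference 0.52, SE 0.125, adjusted p = 0.00576 from limma). None of the 3 had overlapping groups in TPM. After median-of-ratios scaling their differences were -0.01 for Mrps18c, -0.01 for Mrps18a and -0.08 for Mrps18b, and none was called.

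Among the next members, Mrps22, a small-subunit protein whose gene is mutated in some human infants with cardiomyopathy, had 13.5, 17.0 and 15.9 TPM in RBM20-overexpressing ventricles, against 11.4, 9.78 and 10.7 TPM in control ventricles. The groups were separate at this low level (log2 difference 0.50, SE 0.132, adjusted p = 0.00951 from limma). Mrpl32, a large-subunit protein that is trimmed by the mitochondrial m-AAA protease before it is built in, had 24.2, 29.8 and 23.5 TPM in RBM20-overexpressing ventricles, against 19.7, 18.7 and 16.0 TPM in control ventricles. RBM20-overexpressing replicate 2 was the highest library (log2 difference 0.48, SE 0.134, adjusted p = 0.0115 from limma). Mrpl40, of the central protuberance, had 33.1, 45.4 and 35.3 TPM in RBM20-overexpressing ventricles, against 30.5, 28.6 and 23.0 TPM in control ventricles, and the groups were only narrowly apart (log2 difference 0.45, SE 0.153, adjusted p = 0.0267 from limma). Mrps10, the member with the lowest control mean, had 10.1, 11.3 and 9.32 TPM in RBM20-overexpressing ventricles, against 7.53, 7.37 and 7.37 TPM in control ventricles (log2 difference 0.41, SE 0.128, adjusted p = 0.0196 from limma). The rest were Mrpl20 (log2 difference 0.38), Mrpl27 (0.37), Mrps30 (0.33), Mrpl48 (0.33), Mrps17 (0.31), Mrpl22 (0.31), Mrpl16 (0.30) and Mrpl36 (0.24). Mrps30, which also sits in the large subunit in mammals, had 12.2, 15.1 and 13.4 TPM in RBM20-overexpressing ventricles, against 10.5, 10.6 and 10.5 TPM in control ventricles (log2 difference 0.33, SE 0.124, adjusted p = 0.0391 from limma). After median-of-ratios scaling 16 of the 18 had a difference below 0, and Mrpl22, Mrpl36 and Mrpl16 were called lower. Of the 18, 7 kept their TPM call without any 1 library: Mrpl33, Mrpl52, Mrpl54, Mrps18a, Mrps18b, Mrps18c and Mrps22.

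The 44 members not called in TPM had log2 differences between -0.27 and 0.30, and 21 of them were within 0.1 of 0. After median-of-ratios scaling 42 of the 44 were called lower, where 24% of all genes tested were lower. The others, Mrpl17 and Mrpl57, were not called. Mrps23, a mitochondria-specific small-subunit protein and among the 4 most abundant members, had 148, 173 and 164 TPM in RBM20-overexpressing ventricles, against 157, 153 and 140.2 TPM in control ventricles. The groups overlapped (log2 difference 0.11, SE 0.093, adjusted p = 0.323 from limma). In TPM the groups did not overlap for 24 members with RBM20-overexpressing libraries above and 21 with them below, where the shares of all genes tested were 62.1% and 10.4%. After median-of-ratios scaling the counts were 0 above and 67 below, with 28.3% and 28.7% of all genes tested.

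Calls in both directions occurred in both subunits, and the difference between the subunits was not tested. Of 49 large-subunit genes 11 were higher and 10 lower in TPM, with a median log2 difference of -0.01. Of 29 small-subunit genes 7 were higher and 6 lower, with a median of 0.09. Over all genes tested 59% were higher and 9.09% lower, with a median of 0.55. Without RBM20-overexpressing replicate 2, control replicate 2 or control replicate 3, in that order, the large-subunit genes called higher numbered 6, 6 and 4, and the small-subunit genes 4 each time. After median-of-ratios scaling 39 large-subunit and 22 small-subunit genes were lower, with medians of -0.61 and -0.52, where 24% of all genes tested were lower. The summed TPM of the large subunit was 2191 ± 58.8 in RBM20-overexpressing ventricles and 2399 ± 80.2 in control ventricles (SD, n = 3 each), a ratio of 0.913. For the small subunit it was 1344 ± 46.9 in RBM20-overexpressing ventricles and 1407 ± 74.5 in control ventricles, a ratio of 0.955. The large-to-small ratio of these sums was 1.68, 1.62 and 1.60 in the RBM20-overexpressing libraries, against 1.67, 1.71 and 1.74 in the control libraries. The groups overlapped, since RBM20-overexpressing replicate 1 lay above control replicate 1. With Mrps30 and Mrps18a counted where they sit in the structure, the ratio was 1.77 ± 0.038 in RBM20-overexpressing and 1.80 ± 0.0393 in control ventricles, and the groups overlapped. With Mrps36 left out it was 1.81, 1.76 and 1.75 in the RBM20-overexpressing libraries, against 1.89, 1.92 and 1.96 in the control libraries. On that count the groups did not overlap, with means of 1.77 ± 0.0352 in RBM20-overexpressing and 1.92 ± 0.037 in control ventricles. Each of these changes was made alone. The ratio with both made together was not computed, so whether the groups overlap on it is not given.

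Short lists by place in the large subunit were set by hand. They may leave out proteins of a place or misplace one, so their counts describe the listed genes only. Of 6 genes listed for the central protuberance 3 were higher (Mrpl40, Mrpl48 and Mrps30) and 1 lower (Mrpl18), with a median log2 difference of 0.21 in TPM. Of 4 listed for the stalk 0 were higher and 1 lower (Mrpl12), with a median of -0.02. Of 6 listed for the exit tunnel, where new proteins leave, 1 was higher (Mrpl22) and 0 were lower, with a median of 0.11. After median-of-ratios scaling 0 of these listed genes were higher. Lower were 3 of 6 listed for the central protuberance (median -0.39), 4 of 4 for the stalk (median -0.63) and 6 of 6 for the exit tunnel (median -0.49). Of 48 members with a bacterial counterpart 12 were higher and 11 lower (median 0.03), and of 29 without one 6 were higher and 4 lower (median 0.01). After median-of-ratios scaling 38 of the 48 and 22 of the 29 were lower. Mrps36 belongs to neither list. Over all genes tested 59% were higher and 9.09% lower in TPM, with a median of 0.55. After median-of-ratios scaling these shares were 22.2% and 24%.

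**Figure D3:**
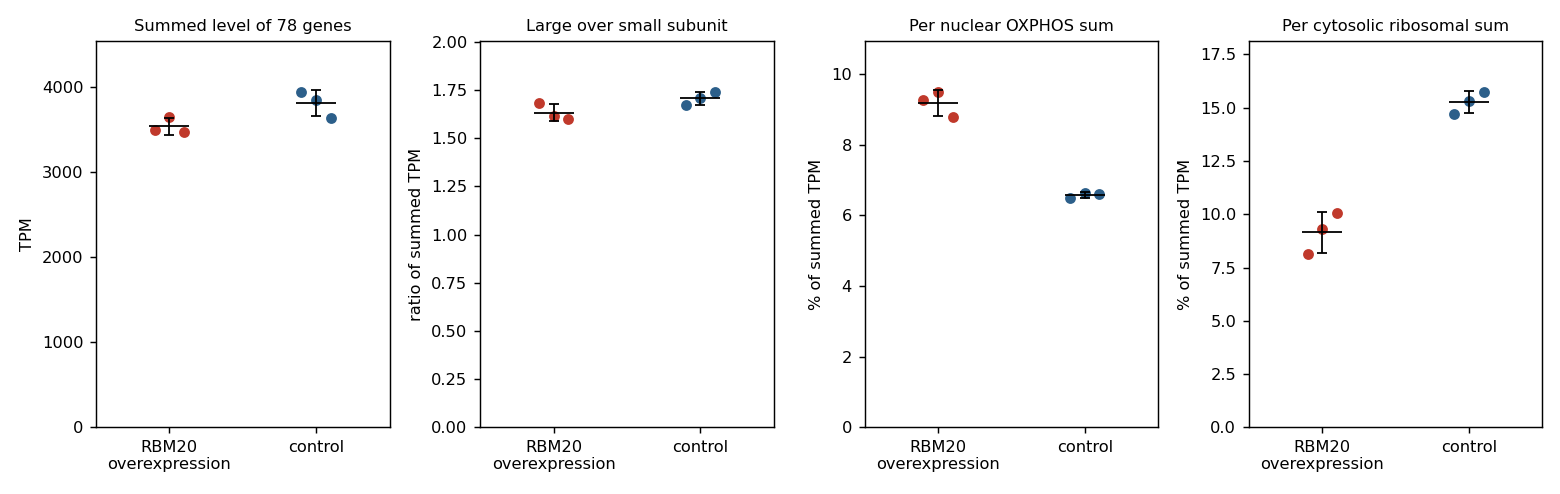
Per library, the summed TPM of the 78 members, the ratio of the large-subunit to the small-subunit sum, and the member sum as a percentage of the summed TPM of nuclear oxidative phosphorylation (OXPHOS) genes and of cytosolic ribosomal protein genes. Points are libraries, bars are the mean and SD (n = 3 each). The first 2 panels overlap, and the last 2 separate the groups in opposite directions, at 9.18% against 6.57% and at 9.16% against 15.3% on average in RBM20-overexpressing against control ventricles.

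Levels within the family spanned more than an order of magnitude. In RBM20-overexpressing ventricles the group means ran from 7.05 TPM (Mrps26) to 241 TPM (Mrps21), a 34.2-fold range with a median of 38.6 TPM. In control ventricles they ran from 7.42 TPM (Mrps10) to 288 TPM (Mrps21), a 38.9-fold range with a median of 36.8 TPM. Members over 100 TPM numbered 5 in RBM20-overexpressing and 8 in control ventricles, and members under 10 TPM numbered 3 in RBM20-overexpressing and 6 in control ventricles. The coefficient of variation over members was 80.4% in RBM20-overexpressing and 91.8% in control ventricles. The order was largely the same in both groups (Spearman's rho of 0.94 across the 78 genes, which share libraries and are not independent). The 26 most abundant members, with a mean of 54.2 TPM or more over all libraries, held 13 of the 16 members called lower and 4 of the 18 called higher. The middle 26 held 2 lower and 8 higher, and the lowest 26 held 1 lower and 6 higher. Across the members the difference had a Pearson's r of -0.32 with the mean log2 level and a Spearman's rho of -0.31, against -0.06 and -0.02 across all genes tested. The level and the difference share the same libraries, and the pseudocount brings the differences of low genes nearer to 0.

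Several members share a short promoter with a gene read in the other direction. Of the 69 members with a window, 21 (30.4%) had such a neighbour whose start was within 300 bases, against 15.2% of the 9663 tested genes with a window. Mrpl18 and Tcp1, which encodes a subunit of the cytosolic chaperonin, start 238 bases apart. Tcp1 had 124, 143 and 124 TPM in RBM20-overexpressing ventricles, against 72.4, 73.3 and 68.3 TPM in control ventricles. It was higher where Mrpl18 was lower (log2 difference 0.86, SE 0.0931, adjusted p = 0.000117 from limma). After median-of-ratios scaling Tcp1 was still higher, at 0.24 (adjusted p = 0.0337 from limma). The GABPA motif printed in capitals for Mrpl18 lies 240 bases before its start, at the Tcp1 end of the shared stretch. Mrpl32 and the proteasome gene Psma2 start 205 bases apart, and Psma2 had 92.0, 102 and 88.6 TPM in RBM20-overexpressing ventricles, against 46.8, 46.1 and 45.4 TPM in control ventricles. Both were higher in TPM, by 0.48 for Mrpl32 and 1.01 for Psma2, while after median-of-ratios scaling Mrpl32 was at -0.12, not called, and Psma2 at 0.40. Mrpl46 and Mrps11, 2 members that start 42 bases apart, had differences of 0.10 and 0.20. Whether the counting of reads used the strand is not given, so reads of genes that overlap cannot be assigned with certainty.

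Other genes of mitochondrial gene expression were counted in the same fit, in which 59% of all genes tested were higher and 9.09% lower in TPM. Of 5 mitoribosome proteins that carry other names, Aurkaip1 was higher (0.31) and Ptcd3 lower (-0.35) in TPM, and the median log2 difference was 0.05. Of 27 genes for mitoribosome assembly and rRNA modification 6 were higher and 2 lower, with a median of 0.05. The highest was Dhx30, an RNA helicase of mitochondrial RNA granules (0.70). The lowest was Fastkd2, which is needed for the large-subunit rRNA (-0.91). Fastkd2 had 8.85, 5.57 and 5.77 TPM in RBM20-overexpressing ventricles, against 13.5, 13.0 and 13.3 TPM in control ventricles. Its groups did not overlap. Of 14 translation factors 1 was higher (Guf1, 0.39) and 5 were lower, Taco1, an activator of the translation of cytochrome c oxidase subunit I, the most (-0.64). Of 20 mitochondrial aminoacyl-tRNA synthetase genes 3 were higher and 2 lower, from -1.35 (Fars2) to 1.06 (Ears2). Of 10 genes for mitochondrial transcription and the nucleoid 2 were higher and 2 lower, and Mterf2 was lowest, at -1.60. Mterf1a had the highest difference of that list, 0.46, and was not called. After median-of-ratios scaling the genes called lower were 4, 14, 11, 15 and 6 in these lists in the order given, and Ears2 was the gene called higher. On that scale 22.2% of all genes tested were higher and 24% lower.

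The family stood between the proteins it serves and the cytosolic ribosome. Of 81 nuclear genes for oxidative phosphorylation 0 were higher and 73 lower in TPM, with a median log2 difference of -0.57. Cox7a1, the heart isoform of a cytochrome c oxidase subunit, was lowest, at -1.94. Cox6a1 was the highest of that list, at 0.25, and was not called. Of the 13 mRNAs of mitochondrial DNA 7 were lower and 0 higher, with a median of -0.42, from -1.60 (mt-Atp8) to -0.14 (mt-Nd6). Of 76 genes for cytosolic ribosomal proteins 71 were higher and 0 lower, with a median of 0.66, from -0.06 (Rps27, not called) to 1.70 (Rpl3). By the same rule 59% of all genes tested were higher and 9.09% lower, with a median of 0.55. After median-of-ratios scaling the medians were -1.20 for nuclear oxidative phosphorylation, -1.05 for the mitochondrial mRNAs and 0.03 for the cytosolic ribosomal proteins, with 7 higher and 7 lower among the last. On that scale 22.2% of all genes tested were higher and 24% lower, with a median of 0.01. The summed TPM of the 78 members was 3487, 3646 and 3472 in RBM20-overexpressing libraries, against 3941, 3840 and 3638 in control libraries, so the groups overlapped, and the ratio of means was 0.929. As a percentage of the summed TPM of nuclear oxidative phosphorylation genes, the members made 9.26, 9.50 and 8.78 in RBM20-overexpressing libraries, against 6.48, 6.63 and 6.60 in control libraries. As a percentage of cytosolic ribosomal protein genes, they made 8.13, 9.30 and 10.1 in RBM20-overexpressing libraries, against 14.7, 15.3 and 15.7 in control libraries. Both of these shares separated the groups, in opposite directions, and neither depends on the scaling of the libraries. As a percentage of mitochondrial mRNA, the members made 0.907, 0.995 and 0.846 in RBM20-overexpressing libraries, against 0.817, 0.786 and 0.700 in control libraries. Those values were narrowly apart, with the RBM20-overexpressing ones above.

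**Figure D4:**
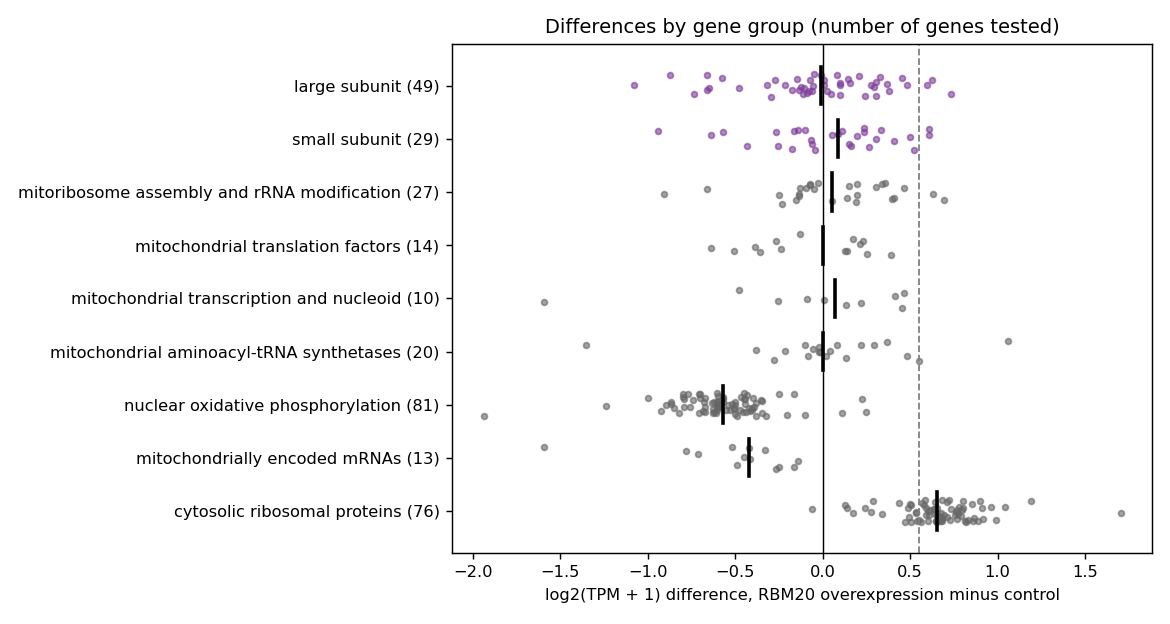
Log2 difference, RBM20-overexpressing minus control on the log2(TPM + 1) scale, of each gene tested in the 2 subunits and in 7 other gene groups. Points are genes, thick bars are group medians and the dashed line is the median of all genes tested (0.55). The subunits lie around 0, the nuclear oxidative phosphorylation genes around -0.57 and the cytosolic ribosomal proteins around 0.66.

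Of 12 regulators of mitochondrial biogenesis 6 were higher and 3 lower in TPM, with a median log2 difference of 0.53, whereas 4 were higher and 5 lower after median-of-ratios scaling, with a median of -0.01. The shares over all genes tested were 59% higher and 9.09% lower in TPM, and 22.2% and 24% after scaling. Ppargc1a, the coactivator PGC-1α, had 21.6, 10.3 and 21.6 TPM in RBM20-overexpressing ventricles, against 104, 335 and 416 TPM in control ventricles. It was lowest in every RBM20-overexpressing library, and its control values were widely spread (log2 difference -3.77, SE 0.489, adjusted p = 0.000263 from limma). Myc, a transcription factor that drives ribosome production, had 26.0, 23.4 and 38.2 TPM in RBM20-overexpressing ventricles, against 8.58, 2.81 and 2.67 TPM in control ventricles. The difference was 2.53 (SE 0.36, adjusted p = 0.000411 from limma). Of the factors whose motifs were searched, Nrf1 (0.65), Gabpa (0.88) and Yy1 (0.75) were higher in TPM. Of the estrogen-related receptors, Esrrg was lower in TPM (-0.87), and Esrra (-0.25) and Esrrb (-0.15) were not called. After median-of-ratios scaling Nrf1 was at 0.11 and Yy1 at 0.15, both not called, and Gabpa at 0.27 was called higher. Esrra (-0.87), Esrrb (-0.74) and Esrrg (-1.45) were then all called lower.

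Most fibroblast and all macrophage markers listed were higher in RBM20-overexpressing ventricles in TPM, and most mural and all endothelial markers were not called. The shares over all genes tested were 59% higher and 9.09% lower in TPM, and 22.2% and 24% after median-of-ratios scaling. Of 8 fibroblast markers 7 were higher in TPM, and 5 were higher and 1 lower after median-of-ratios scaling. Their summed level was 1318 to 2020 TPM in RBM20-overexpressing and 406 to 528 TPM in control ventricles. Of 8 macrophage markers 8 were higher in TPM and 8 after scaling, with sums of 487 to 762 TPM in RBM20-overexpressing and 194 to 248 TPM in control ventricles. Of 6 mural cell markers 2 were higher in TPM, while 1 was higher and 3 were lower after scaling, with sums of 543 to 602 TPM in RBM20-overexpressing and 475 to 613 TPM in control ventricles. Of 6 endothelial markers 0 were called in TPM and 2 were lower after scaling, with sums of 391 to 459 TPM in RBM20-overexpressing and 324 to 410 TPM in control ventricles. Of 10 cardiomyocyte markers 2 were higher and 4 lower in TPM, and 0 were higher and 7 lower after scaling, with sums of 39140 to 43886 TPM in RBM20-overexpressing and 44102 to 49577 TPM in control ventricles. Of 6 lymphocyte markers 0 reached a mean of 1 TPM, and their sums were 1.32 to 2.00 TPM in RBM20-overexpressing and 0.450 to 0.939 TPM in control ventricles, with 3 of the 6 at 0 in a control library. The summed level of the cardiomyocyte markers was high in all 6 libraries, as the ventricle label says, but the single markers were not alike. Their log2 differences ran from -2.82 to 0.73 in TPM and from -3.44 to 0.10 after median-of-ratios scaling. The part of these cell types in the members' values was not tested.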

How the data were processed

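Poly(A) RNA of left ventricle was sequenced in 6 libraries, per the labels' protocols, as strand-specific read pairs. The authors deposited TPM per gene symbol for 31273 symbols, of which 9375 were 0 in every library. The submitters' processing notes name featureCounts 2.0.3, edgeR 3.40.2, GATK 4.2.6.1, STAR-Fusion 1.11.0 and the build mm8, without the role of each. The aligner, annotation and strand setting were not stated in the sources used, so overlapping genes and near-identical copies are uncertain. TPM values keep no depth.

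Genes averaging 1 TPM or more entered a comparison of 3 RBM20-overexpressing with 3 control libraries on log2(TPM + 1), made with limma 3.58.1 in R 4.3.3 (trended, two-sided, Benjamini-Hochberg over all genes tested, threshold 0.05). Differences on this scale understate those of low genes. The fit was repeated after median-of-ratios scaling, the factor of a library being the median over genes of its TPM relative to their geometric mean. The fit without rescaling was tried on simulated data of 11624 genes. It recovered 98.0% of 2-fold and 100% of 4-fold changes, and 10 of 198 calls were unchanged genes. The simulation held no broad shift between the groups and no change smaller than 2-fold. It therefore does not bear on the choice of scaling or on smaller differences. The members and gene lists were chosen with earlier results of these data known. Values per library are given for the 10 members with the highest and the 10 with the lowest difference, the 4 most abundant and some chosen by role. Of the lists of other mitochondrial genes, regulators and cytosolic ribosomal proteins, the genes with the highest and the lowest difference are named. Cell type markers are given as list values only. A few other genes named by role were chosen after their values were seen. The alternatives were pseudocounts of 0.1 and 0.5, no filter or 5 TPM, 3 scalings, limma without trend or with robust moderation, and each library left out. Promoter windows are those of RefSeq for GRCm38.p6, matched by symbol. Python 3.11.15 with pandas 2.3.3 and matplotlib 3.10.9 was used for summaries.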

Additional observations from a re-analysis of the deposited data

How the results depend on the processing

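The number of members called depends on how libraries are scaled. With median-of-ratios scaling, with mitochondrially encoded genes removed and with quantile normalization, in that order, 0, 5 and 0 members were called higher and 61, 39 and 57 lower. For the large subunit these were 0, 3 and 0 higher and 39, 26 and 36 lower, and for the small subunit 0, 2 and 0 higher and 22, 13 and 21 lower. Of all genes tested, in the same order, 22.2%, 40.1% and 23.9% were higher and 24%, 13.4% and 22.7% lower. The median log2 difference was -0.61, -0.27 and -0.51 for all members, -0.61, -0.29 and -0.53 for the large subunit and -0.52, -0.19 and -0.44 for the small subunit. By construction these scalings take away part or all of the 0.55 by which the all-gene median exceeds 0.

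Members called higher in TPM that went below 0 with median-of-ratios scaling were Mrpl20 (-0.24), Mrps18c (-0.0089), Mrps17 (-0.28), Mrpl48 (-0.27), Mrps22 (-0.084), Mrpl54 (-0.023), Mrpl22 (-0.31), Mrpl27 (-0.25), Mrpl32 (-0.12), Mrpl36 (-0.37), Mrps30 (-0.24), Mrpl40 (-0.15), Mrps18b (-0.079), Mrps18a (-0.0060), Mrps10 (-0.15) and Mrpl16 (-0.32). With quantile normalization they were Mrpl20 (-0.089), Mrps17 (-0.24), Mrpl48 (-0.21), Mrps22 (-0.063), Mrpl22 (-0.18), Mrpl27 (-0.14), Mrpl32 (-0.058), Mrpl36 (-0.27), Mrps30 (-0.23), Mrpl40 (-0.067), Mrps18b (-0.0049), Mrps10 (-0.16) and Mrpl16 (-0.21). With mitochondrially encoded genes removed it was Mrpl36 (-0.038).

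Leaving out 1 library at a time gave 8 to 18 members higher and 12 to 17 lower in TPM, and 54 to 61 lower after median-of-ratios scaling. The ranges were 4 to 11 higher, 8 to 11 lower and 35 to 39 lower after scaling for the large subunit, and 4 to 7, 4 to 6 and 19 to 22 for the small subunit. Medians ran from -0.02 to 0.04 for all members, -0.05 to 0.02 for the large subunit and 0.06 to 0.15 for the small subunit. The large-to-small ratio of summed TPM, RBM20-overexpressing over control, was 0.956, from 0.942 to 0.966 with 1 library left out, 0.985 with Mrps30 and Mrps18a counted in the large subunit and 0.921 without Mrps36. Other pseudocounts and a filter of 5 TPM changed the call of none of the 78 members, robust moderation of none, no filter of 2 and no trend of 4.

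No paired analysis was possible because the numbers in the titles differ between the groups, and the replicate numbers used here only name libraries. With 3 libraries a group, limma borrows its estimate of spread from all genes, and an exact permutation test of 1 gene could not go below p = 0.1. TPM gives no depth, so counting error is not known, and it weighs most on members near 10 TPM. A p above the threshold does not show that a member was alike in the groups.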
